A study of Mus musculus with 8 samples.

Results

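Complement is a protein cascade of innate immunity, and the data described here are the transcript levels of 9 of its components and inhibitors in retinal pigment epithelium (RPE) eyecups of Bbs8+/+ and Bbs8-/- mice. The 9 genes were C1ra, C4b, C2, C3, Cfd, Cfi, Serping1, Cd55 and Cd59a, which were taken by their symbols from the 31053 genes counted in every library and leave aside the C1q chains. Each symbol matched a single gene. RNA was taken from C57/Bl6 mice at postnatal day 11 (P11), without treatment. The controls were 4 wild-type littermates (Bbs8+/+) and the mutants were 4 Bbs8 knockouts (Bbs8-/-), for a total of 8 QuantSeq 3′ mRNA libraries. Bbs8, listed in the annotation as Ttc8, encodes a subunit of the BBSome, the protein complex that sorts membrane cargo in cilia. The comparison asks how loss of this ciliary gene alters transcripts of the RPE, the pigmented layer behind the photoreceptors. Bbs8 was deleted in the whole animal, and a difference in the cup need not arise in the RPE. RNA came from the whole posterior cup after removal of the anterior eye, the neural retina and attached tissue, so choroid and sclera are part of each sample. Fewer cells of a type and less RNA per cell cannot be told apart in such bulk samples.

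In the classical pathway, C1q binds a target and activates the protease C1r, which activates C1s, and C1s cleaves C4 and C2 to form an enzyme that splits C3. The alternative pathway reaches C3 through factor B, which factor D cleaves, and both routes can end in the membrane attack complex, a pore in the target membrane. Host cells hold the cascade in check with soluble inhibitors such as C1 inhibitor and factor I, and with membrane proteins such as CD55 and CD59. The border between RPE and choroid is a place where complement is known to be deposited, and variants near complement genes are associated with age-related macular degeneration.

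None of the 9 complement genes passed the test for a difference between the genotypes. Of these, 7 were abundant enough to be tested, 0 had a false discovery rate (FDR) under 0.05 in the edgeR quasi-likelihood test, and the lowest FDR was 0.198, for C2. Among all 13813 genes tested, 309 (2.24%) were called, 152 up (1.1%) and 157 down (1.14%). At an unadjusted p under 0.05, which 1792 genes (13%) reached, 4 of the 7 stood out, C3 and Cd59a with higher means (as 881 genes, 6.38%) and C2 and Serping1 with lower means in Bbs8-/- (as 911 genes, 6.6%). Whatever the p, 3 of the 7 had a log2 fold change below 0, against 50.5% of all tested genes. Their values are given below as measured differences that the correction for 13813 tests did not pass. C3 reached the minimum of 1 CPM in all 4 Bbs8-/- libraries but in only 1 Bbs8+/+ library, so it entered the test through the group in which it was higher, and its place among these 4, or in any count below, carries no weight. DESeq2 also called 0 of the 9 genes, and gave no adjusted p for C3. Apart from C3, Serping1 was the only one of the 7 for which the libraries of the genotypes were fully separate, as they were for 1019 of all tested genes (7.38%). Changes are given as log2 fold changes of Bbs8-/- over Bbs8+/+, and levels as read counts scaled to the library total (CPM) after TMM normalization.

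**Figure D1:**
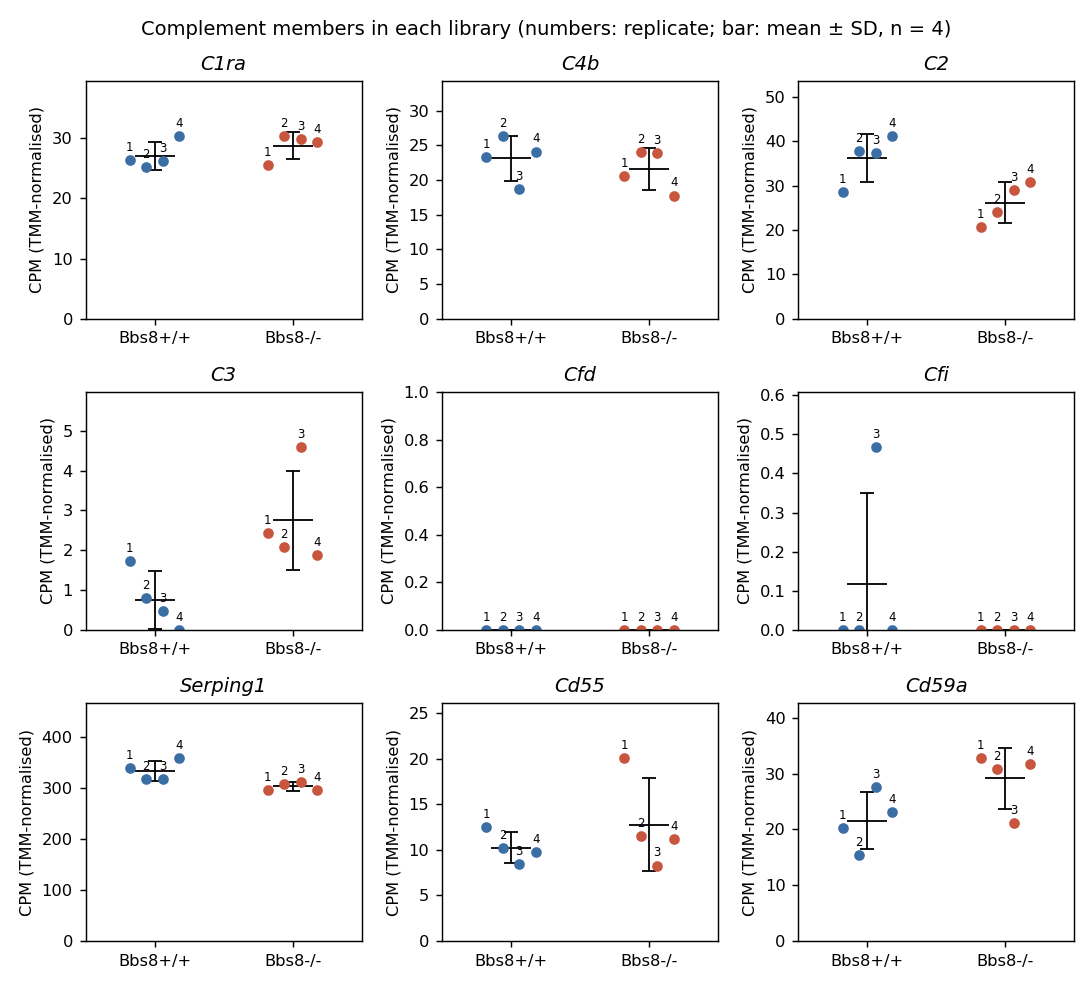
Level of the 9 complement genes in each library. The y axis of each panel is CPM after TMM normalization and starts at 0, points are single libraries with their replicate number, and bars give the mean ± SD of the 4 libraries of a genotype. Serping1 lies near 300 CPM in both genotypes, C2 is lower and Cd59a higher on average in Bbs8-/- with overlapping points, C3 stays under 5 CPM, Cfi has 1 count in 1 library and Cfd has none.

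Total gene counts were 1636725 to 2884983 per library, so 3 counts, taken here as the smallest level the depth can show, correspond to 1.04 to 1.83 CPM in a single library and to 0.169 CPM over all 8. The targeted gene Ttc8 (chromosome 12, 98920574 to 98983238, plus strand) went from 18.6 ± 2.96 CPM in the controls to 4.97 ± 3.27 CPM in the mutants (SD over 4 libraries), a log2 fold change of -1.95 (edgeR FDR 2.751e-06), without overlap. Among the mutants Bbs8-/- replicate 1 held the most, 9.72 CPM from 16 counts, while replicates 2 to 4 had 2.30 to 4.21 CPM, and leaving it out gave -2.44. Libraries of 1 genotype differed by more than counting noise in all 12 pairs, with a chi-square per degree of freedom of 1.86 to 3.03. The counts have no molecular identifiers, so this spread cannot show that each library is its own animal. The libraries were kept as separate replicates, as labelled. RPE markers were abundant, with a summed level of 17708 to 18743 CPM in Bbs8+/+ and 19168 to 19536 CPM in Bbs8-/- over 10 genes led by Ttr. Fibroblast, pigment cell, muscle, blood and some photoreceptor and lens transcripts were present as well. The sex of the animals is not in the labels, and Xist and the Y-linked Ddx3y, Uty, Kdm5d and Eif2s3y were all found in every library, with Xist lower and the first 3 of these Y-linked genes higher in Bbs8-/- at FDR 0.05. The methods of the study count every animal as its own biological replicate, and the labels likewise call the libraries biological replicates. Why both kinds of sex-linked transcript were found in each library was not tested. Most of these transcripts differed with genotype, and sex was not a term of the fit. Sex composition was therefore not separated from genotype in any value here, and its part in the complement values was not tested. SDs and p-values here measure the spread between these libraries.

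The sequence upstream of the transcription start is shown for C3 and Cd59a, the 2 genes among the 4 with an unadjusted p under 0.05 for which the RefSeq promoter table (GRCm38.p6) held an entry. Each line gives the 250 bases before the start on the strand of the gene, 5′ to 3′. They are C3 at chr17:57228137-57228386 on the minus strand and Cd59a at chr2:104095551-104095800 on the plus strand. Capitals mark matches to an NF-kappaB-type motif (GGGA and CC separated by 4 bases of any kind) in C3 and to an interferon-type motif (GAAA and GAAA separated by 2 bases of any kind) in Cd59a, each searched on both strands.

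C3: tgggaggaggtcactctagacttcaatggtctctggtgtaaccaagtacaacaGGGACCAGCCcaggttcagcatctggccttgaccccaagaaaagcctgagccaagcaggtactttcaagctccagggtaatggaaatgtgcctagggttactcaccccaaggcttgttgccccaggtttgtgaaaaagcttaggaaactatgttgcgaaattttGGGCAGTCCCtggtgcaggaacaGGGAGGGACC

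Cd59a: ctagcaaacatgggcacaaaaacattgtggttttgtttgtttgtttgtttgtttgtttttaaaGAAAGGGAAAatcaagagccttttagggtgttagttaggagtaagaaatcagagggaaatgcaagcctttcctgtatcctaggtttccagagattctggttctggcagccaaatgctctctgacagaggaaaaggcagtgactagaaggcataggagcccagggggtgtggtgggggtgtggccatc

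The upstream stretch of C3 held 3 matches to the NF-kappaB-type motif, 1 of them on the opposite strand, and that of Cd59a held 1 match to the interferon-type motif. In the full entries of 300 bases, which add 50 bases after the start, the NF-kappaB-type motif was found in 20.7% of all 32851 promoters and in 2 of the 5 complement genes with an entry, C3 and Cd55. The interferon-type motif was found in 3.44% of promoters and in Cd59a alone of the 5. The gamma-activated motif TTCNNNGAA (8.3% of promoters) matched only in C1ra, the TATA box motif TATAAA (13.6%) only in C3, and CACGTG (7.15%) in none of the 5. None of these motifs shared bases with another in the 2 stretches shown. Motif matches are letters in a window and were not tied to the expression values.

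The first steps of the classical pathway are represented by C1ra, C4b and C2. C1ra (chromosome 6, 124512405 to 124523443, plus strand) encodes C1r, the protease that activates C1s. Its level was 26.3, 25.2, 26.2 and 30.4 CPM in Bbs8+/+ and 25.5, 30.3, 29.9 and 29.5 CPM in Bbs8-/-. The genotypes overlapped over nearly their whole range. On the log2 scale the difference was 0.09, with a standard error (SE) of 0.186 and a 95% interval of -0.27 to 0.46 (edgeR FDR 0.901). The interval corresponds to 0.827 to 1.37 times the control level. Of the 100-base windows in the last 500 bases of its transcript, 8.98% also occur in the neighbouring copy C1rb, which had 0 counts in all libraries.

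C4b (chromosome 17, 34728380 to 34743882, minus strand) encodes complement C4, whose larger fragment attaches to the target and holds C2. It was measured at 23.3, 26.4, 18.7 and 24.1 CPM in Bbs8+/+ and at 20.7, 24.1, 23.9 and 17.8 CPM in Bbs8-/-. High and low libraries occurred in both genotypes. The log2 fold change was -0.10 (SE 0.208, 95% interval -0.51 to 0.30, edgeR FDR 0.899). Its near-identical copy C4a was not analysed here. Of the 100-base windows in the last 500 bases of C4b, 15.7% also occur in C4a. Reads lying wholly in such windows would not align uniquely and would be left uncounted.

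C2 (chromosome 17, 34862604 to 34898265, minus strand) encodes the protease subunit that, joined to the large fragment of C4, cleaves C3. Its level was 28.5, 37.8, 37.4 and 41.3 CPM in Bbs8+/+ and 20.7, 24.1, 28.9 and 30.9 CPM in Bbs8-/-. The means were 36.2 ± 5.45 and 26.1 ± 4.64 CPM (SD over 4 libraries), and the genotypes overlapped only because the lowest Bbs8+/+ library lay below the 2 highest Bbs8-/- libraries. The log2 fold change was -0.46 (SE 0.179, 95% interval -0.81 to -0.11, unadjusted p = 0.0109, edgeR FDR 0.198). It stayed between -0.56 and -0.37 in the 17 alternative analyses, and its FDR stayed at 0.113 or above. Exons of C2 share 1656 bases with Gm20547 on the same strand, which had 0 counts, and 161 bases with Zbtb12 on the opposite strand, which had 211 counts over all libraries. Reads in shared exons on 1 strand would be left uncounted as ambiguous, and only 31 of the last 500 bases of C2, where QuantSeq reads fall, are shared with Gm20547 and 0 with Zbtb12.

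C2 had the lowest unadjusted p of the 9 complement genes. The genes with the most similar course over the 8 libraries were sought among the 9041 tested genes with a mean of at least 10 CPM. Likeness was the root mean square difference of centred log2 levels, which was 0.0805 for Tshz1, 0.117 for Bag3 and 0.119 for Adamts15. Tshz1, a transcription factor gene, had a log2 fold change of -0.37 (edgeR FDR 0.234). Bag3, which encodes a co-chaperone, had -0.38 (FDR 0.224), and Adamts15, which encodes a matrix protease, had -0.32 (FDR 0.609). None of the 3 passed the test either. They were chosen by likeness to C2, so their lower means follow from that choice.

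Cfb, the neighbour of C2 on chromosome 17, encodes factor B, the counterpart of C2 in the alternative pathway, and starts 85 bases from the end of C2. It had 4.61 ± 0.637 CPM in Bbs8+/+ and 5.14 ± 0.994 CPM in Bbs8-/-, a log2 fold change of 0.17 with a 95% interval of -0.72 to 1.06 (edgeR FDR 0.929). The intervals of C2 and Cfb overlap, and the difference between these neighbours was not tested.

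C3 (chromosome 17, 57203970 to 57228136, minus strand) encodes the protein on which all activation pathways converge, and it was close to the limit of detection. The 4 Bbs8+/+ libraries held 4, 2, 1 and 0 counts and the 4 Bbs8-/- libraries held 4, 4, 10 and 4 counts. In CPM these were 1.73, 0.788, 0.468 and 0 in Bbs8+/+ and 2.43, 2.09, 4.59 and 1.87 in Bbs8-/-. Every Bbs8-/- library lay above every Bbs8+/+ library in CPM, by a narrow margin, although Bbs8+/+ replicate 1 and 3 of the Bbs8-/- libraries held the same number of reads. Summed by genotype, 7 counts stood against 22, a ratio of 3.91 per gene count with a 95% Poisson interval of 1.61 to 10.8, which covers counting error only.

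The edgeR log2 fold change of C3 was 1.86 (SE 0.815, 95% interval 0.27 to 3.46, unadjusted p = 0.0238, FDR 0.285). Without Bbs8-/- replicate 3, which holds 10 of the 22 counts, it was 1.49 (FDR 0.567), and without Bbs8+/+ replicate 1 it was 2.63 (FDR 0.165). The higher mean of C3 in Bbs8-/- therefore rests on few reads and did not pass the test in any alternative. The summed level of 12 macrophage and microglia markers was also higher in Bbs8-/-, at 587 to 613 CPM against 476 to 523 CPM in Bbs8+/+. Csf1r, the receptor that maintains macrophages, was up-regulated (log2 fold change 0.28, edgeR FDR 0.01045), as was Lyz2, which encodes a lysozyme (0.54, FDR 0.02289). Csf1r was the most abundant of the 12 markers of these cells, of which 10 had a higher and 2 a lower mean. The part of these cells in the C3 value was not tested.

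Cfd and Cfi, which encode serine proteases with opposite effects, were not measurable. Cfd (chromosome 10, 79890853 to 79892655, plus strand) encodes factor D, also called adipsin, which activates the alternative pathway and is a classical product of fat cells. It had 0 counts in all 8 libraries, which allows a level of up to 0.169 CPM over all of them. The adipocyte markers Adipoq, Lep and Cidec were at 0 in every library as well, whereas Pnpla2 (33.7 CPM in both groups), Fabp4 (9.58 and 6.06 CPM) and Plin4 (4.21 and 4.19 CPM) were detected and not called. The 10 adipocyte markers summed to 144 to 166 CPM in Bbs8+/+ and 154 to 163 CPM in Bbs8-/-, of which the most abundant, Car3, took 107 ± 11.4 and 114 ± 6.20 CPM (SD over 4 libraries). Car3 is also known from muscle. None of the 4 adipocyte markers that could be tested was called.

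Cfi (chromosome 3, 129835884 to 129875332, plus strand) encodes factor I, which cuts the active fragments of C3 and C4 into inactive forms. A single count was found, in Bbs8+/+ replicate 3. A difference between the genotypes was not detectable at this depth for either protease. Both genes have a poly(A) signal (AATAAA or ATTAAA) in the last 50 bases of the annotated transcript, as all 9 complement genes do, and no 100-base window of their last 500 bases occurs in another gene.

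The most abundant transcript of the group was that of an inhibitor. Serping1 (chromosome 2, 84765387 to 84775444, minus strand) encodes C1 inhibitor, which inactivates C1r and C1s. Its level was 339, 318, 319 and 359 CPM in Bbs8+/+ and 297, 309, 313 and 296 CPM in Bbs8-/-, with 489 to 1026 counts per library. All Bbs8-/- libraries lay below all Bbs8+/+ libraries, and the gap between the closest libraries, at 318 and 313 CPM, was narrower than the spread within either genotype. The means were 333 ± 19.4 and 303 ± 8.49 CPM (SD over 4 libraries). The log2 fold change was -0.14 (SE 0.0672, 95% interval -0.27 to -0.0049, unadjusted p = 0.0441, edgeR FDR 0.369). It lay between -0.16 and -0.098 in the alternatives. The interval places the Bbs8-/- level between 0.830 and 0.997 of the control level.

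Serping1 took 73.7% ± 0.979 of the summed CPM of the 9 genes in the controls and 71.5% ± 0.993 in the mutants (SD over 4 libraries). The sum itself was 434 to 487 CPM in Bbs8+/+ and 419 to 431 CPM in Bbs8-/-. Since QuantSeq gives reads near the 3′ end of a transcript, these CPM were not divided by transcript length. Below Serping1 the order of the mean levels pooled over both genotypes was C2, C1ra, Cd59a, C4b, Cd55, C3, Cfi and Cfd, with means of 31.2, 27.9, 25.4, 22.4, 11.5, 1.75, 0.0585 and 0 CPM. The first 4 of these stood in another order within each genotype: C2, C1ra, C4b and Cd59a in Bbs8+/+ (36.2, 27.0, 23.1 and 21.6 CPM) and Cd59a, C1ra, C2 and C4b in Bbs8-/- (29.1, 28.8, 26.1 and 21.6 CPM). C2, C1ra, Cd59a and C4b overlapped with their neighbours in that order, and so did Cd55 with C4b through Bbs8-/- replicate 1. C3 lay below Cd55 in every library.

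Fibroblast markers are given beside Serping1 and C2, since fibroblasts are a known source of soluble complement proteins. The 10 fibroblast markers summed to 34509 to 36258 CPM in Bbs8+/+ and to 27138 to 28303 CPM in Bbs8-/-. Of these, 3 were down-regulated, Col1a2 (log2 fold change -0.55, edgeR FDR 1.621e-36), Col1a1 (-0.42, FDR 2.008e-25) and Col3a1 (-0.21, FDR 0.00017), all collagen genes, and none was up-regulated. Col1a1 and Col1a2 dominate the sum, and the markers did not move together, since 6 of the 10 had a lower and 4 a higher mean. Dcn, the gene of the matrix proteoglycan decorin, had 5894 ± 151 CPM in the controls and 6261 ± 122 CPM in the mutants (SD over 4 libraries), higher in all 4 Bbs8-/- libraries without passing the test (log2 fold change 0.09, edgeR FDR 0.174). Serping1 and C2 had lower means in the same libraries. The part of fibroblasts in these values was not tested.

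Interferon is a known inducer of Serping1, C2 and C4b, and 18 interferon-responsive genes were therefore listed. They summed to 887 to 946 CPM in Bbs8+/+ and to 782 to 802 CPM in Bbs8-/-, without overlap. B2m, the light chain of MHC class I, was down-regulated from 583 ± 15.4 to 472 ± 16.6 CPM (SD over 4 libraries), a log2 fold change of -0.31 (edgeR FDR 9.617e-05). It was the only one of the 18 past the threshold, and the median of the list was -0.17 against -0.0041 over all tested genes. B2m makes up most of the summed level. Whether the lower C2 and Serping1 means have a part in common with it was not tested.

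Cd55 (chromosome 1, 130439027 to 130462744, minus strand) encodes decay-accelerating factor, a membrane protein that takes apart the enzymes that cleave C3. Its level was 12.5, 10.2, 8.42 and 9.79 CPM in Bbs8+/+ and 20.05, 11.5, 8.27 and 11.2 CPM in Bbs8-/-. Only Bbs8-/- replicate 1 stood above the control range, and the lowest of all 8 libraries was also Bbs8-/-. The log2 fold change of 0.29 (SE 0.294, 95% interval -0.29 to 0.87, edgeR FDR 0.761) went to 0.013 (FDR 0.994) without that replicate. The copy Cd55b had 0 counts. The antisense gene Gm16083 shares 102 exonic bases with Cd55, none of them in its last 500 bases, and had 5 counts in all.

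Cd59a (chromosome 2, 104095801 to 104115354, plus strand) encodes the membrane anchor protein that stops the attack complex from forming a pore. It was measured at 20.3, 15.4, 27.6 and 23.1 CPM in Bbs8+/+ and at 32.8, 30.9, 21.1 and 31.8 CPM in Bbs8-/-. In Bbs8-/-, 3 libraries lay above all controls and replicate 3 lay among them. The means were 21.6 ± 5.13 and 29.1 ± 5.40 CPM (SD over 4 libraries), with a log2 fold change of 0.43 (SE 0.201, 95% interval 0.04 to 0.83, unadjusted p = 0.0341, edgeR FDR 0.334). The alternatives gave 0.30 to 0.56, none past the threshold. The copy Cd59b had 4 counts in all libraries together.

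**Figure D2:**
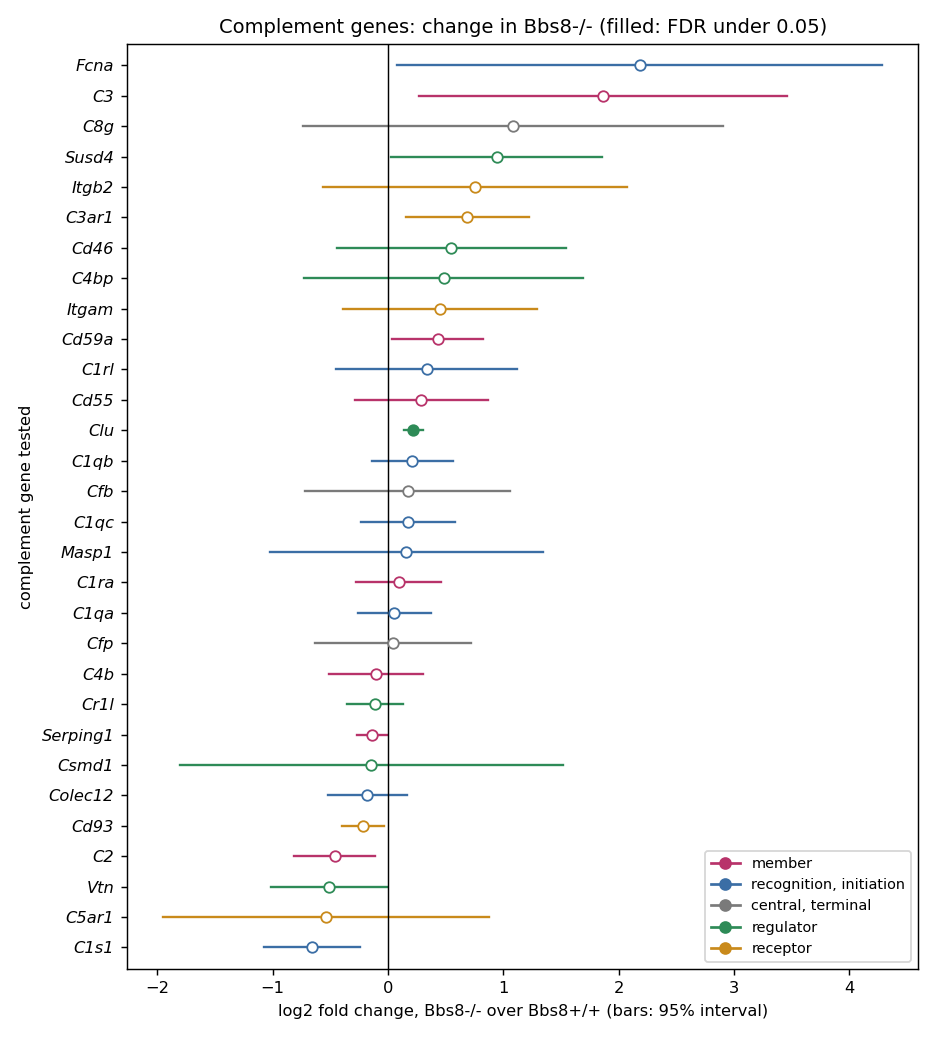
Log2 fold change of Bbs8-/- over Bbs8+/+ for the 30 complement genes plotted, with 95% intervals as bars and colours by role. Clu is the only filled point, at 0.22 with FDR 7.379e-05, and the intervals of low-count genes such as Fcna, C3 and C8g are several log2 units wide.

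To place the 9 genes in their pathway, 49 other complement genes were examined, of which 12 had 0 counts in all libraries, 14 had between 1 and 20 counts and were not tested, and 23 were tested. Of the 23, 1 was up-regulated and 0 were down-regulated at FDR 0.05, beside 1.1% and 1.14% of all tested genes. A higher mean was found for 16 and a lower mean for 7, where 50.5% of all tested genes had a log2 fold change below 0. The median log2 fold change of the 23 was 0.17, against -0.0041 for all tested genes. At an unadjusted p under 0.05, which 13% of all tested genes reached, there were 7. Higher were Fcna, a ficolin gene with 15 counts in all (log2 fold change 2.18), Clu, the membrane regulator gene Susd4 (0.94) and C3ar1, and lower were C1s1, the vitronectin gene Vtn (-0.51) and Cd93. Fcna and the terminal pathway gene C8g each reached 1 CPM in 3 Bbs8-/- libraries and in only 1 Bbs8+/+ library, so like C3 they were tested through the group in which they were higher and lend no weight to these counts or the median. Without both, 14 genes had a higher and 7 a lower mean, with a median of 0.17.

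The called gene was Clu, which encodes clusterin, a secreted chaperone that also blocks the attack complex. Its level was 2066, 1925, 2125 and 2052 CPM in Bbs8+/+ and 2343, 2324, 2361 and 2483 CPM in Bbs8-/-. All Bbs8-/- libraries lay above all Bbs8+/+ libraries. The log2 fold change was 0.22 (SE 0.0411, edgeR FDR 7.379e-05), and Clu passed the threshold in all 17 alternatives with values of 0.20 to 0.24. Clu was the most abundant of the 58 complement genes examined. It was the only one of the 23 for which the genotypes did not overlap, as they did not for 7.38% of all tested genes. Cr1l, which encodes the rodent membrane inhibitor Crry, had 70.9 ± 9.86 and 65.1 ± 7.83 CPM (-0.11, FDR 0.789). Of the 7 tested regulators, 3 had a lower and 4 a higher mean, and Clu was the only one called. The median of the 7, at 0.22, was the value of Clu itself.

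Of the 16 recognition and protease genes, 8 were tested and 0 were called. C1qa, C1qb and C1qc, the 3 chains of C1q, had log2 fold changes of 0.06 (edgeR FDR 0.936), 0.21 (FDR 0.686) and 0.17 (FDR 0.812), with means of 21.1 to 37.6 CPM in Bbs8+/+. C1s1 encodes C1s, the partner of C1r, and was at 28.1, 31.5, 19.2 and 33.2 CPM in Bbs8+/+ and at 24.9, 17.3, 16.1 and 14.0 CPM in Bbs8-/-. Bbs8+/+ replicate 3 and Bbs8-/- replicate 1 crossed over between otherwise separate groups. Its log2 fold change was -0.66 (SE 0.212, edgeR FDR 0.0784). Without Bbs8+/+ replicate 3 it was -0.80 (FDR 0.0227), and without Bbs8-/- replicate 1 it was -0.83 (FDR 0.0372), so leaving out either library brought it past the threshold. The other 6 omissions gave FDRs of 0.125 to 0.284, and thinning to the smallest total gave -0.52 (FDR 0.290). Colec12, which encodes a scavenger receptor with a collectin domain, had 38.8 ± 11.1 and 33.9 ± 9.04 CPM (-0.18, FDR 0.747).

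Of the terminal and alternative pathway genes, Cfb, Cfp and C8g were tested and none was called. C6, C7 and C9, which build the attack complex, had 0 counts in all libraries, and C5, listed as Hc, had 7 counts in all. Among 9 receptor genes, 5 were tested with a median of 0.45 and 0 were called. Cd93, a surface protein of endothelium and myeloid cells once proposed as a C1q receptor, was at 153 ± 18.2 CPM in Bbs8+/+ and 131 ± 12.2 CPM in Bbs8-/- (-0.22, edgeR FDR 0.266). C3ar1, which encodes the receptor for the C3a fragment and is found on macrophages, had 10.3 ± 2.57 and 16.8 ± 4.31 CPM (0.69, FDR 0.215), beside the higher macrophage markers given above.

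**Figure D3:**
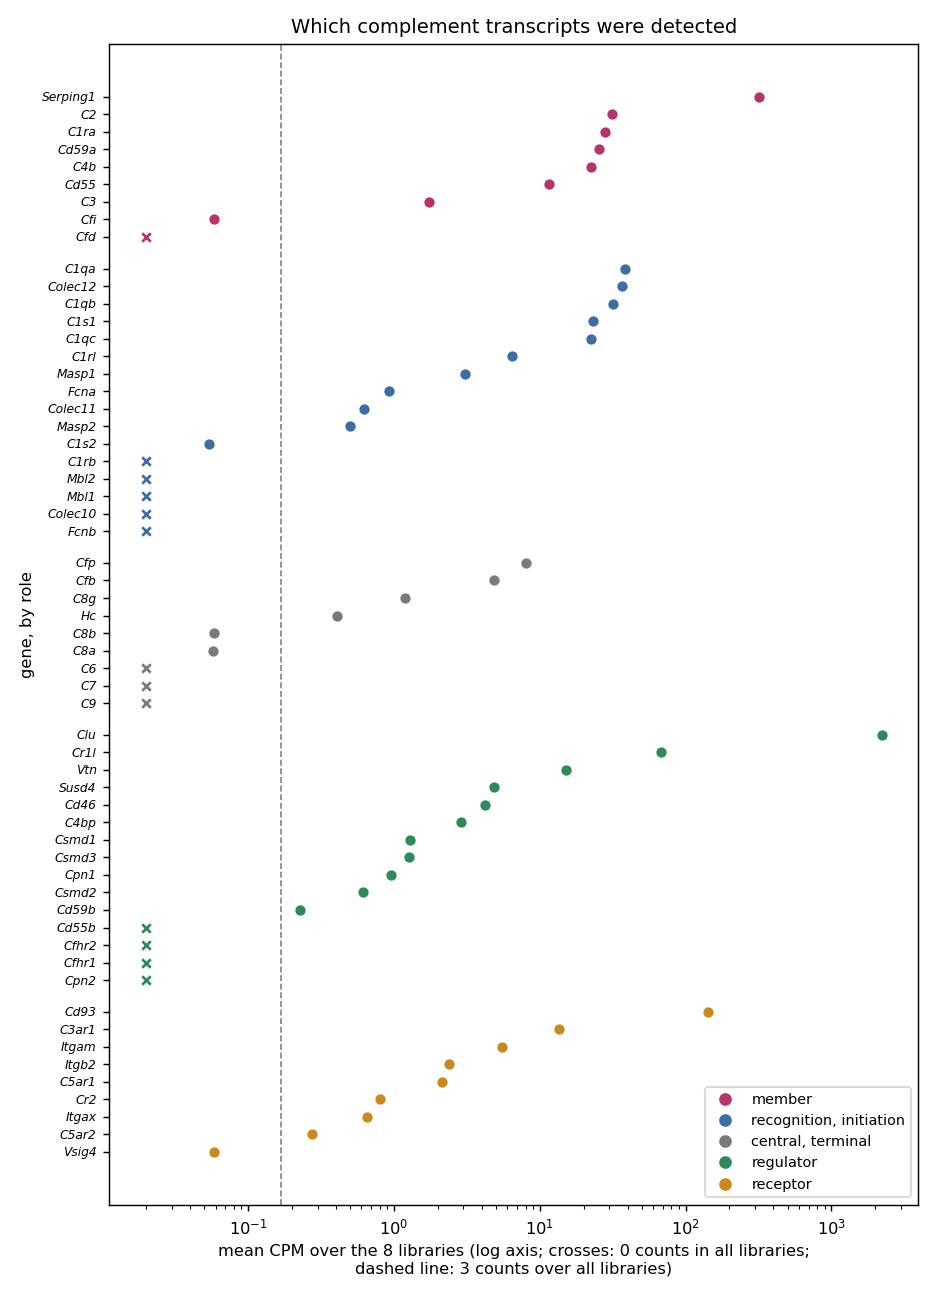
Mean level of the 58 complement genes over the 8 libraries, grouped by role. The x axis is mean CPM on a log scale, crosses mark genes with 0 counts, and the dashed line marks 3 counts over all libraries, 0.169 CPM. Clu, Serping1 and Cd93 lie above 100 CPM, and C6, C7 and C9 of the attack complex are among the crosses.

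Markers of the other tissues of the cup also differed between the genotypes, and their share in the complement values was not tested. Pigment cell markers summed to 14291 to 14952 CPM in Bbs8+/+ and 11850 to 12376 CPM in Bbs8-/-, with 7 of 10 genes down-regulated, among them Dct, Pmel and Tyrp1. Of the RPE markers 1 of 10 was called, Otx2, a transcription factor gene, which was up-regulated (log2 fold change 0.48, edgeR FDR 6.084e-12). Endothelial markers overlapped, at 906 to 964 against 918 to 1000 CPM, with Egfl7 up-regulated (0.36, FDR 0.008122) as 1 of 10 and Kdr the most abundant.

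Lens markers summed to 204 to 226 CPM in Bbs8+/+ and 334 to 355 CPM in Bbs8-/-, with 5 of 11 up-regulated, although the most abundant of them, Cryab, was not (-0.15, edgeR FDR 0.484). Photoreceptor markers summed to 490 to 553 and 385 to 430 CPM, with 2 of 10 down-regulated, among them Gnat1 (-0.86, edgeR FDR 0.0005021). Of 6 markers of Müller glia and astrocytes, led by Glul, Gfap was up-regulated (2.42, FDR 1.01e-06) from 2.62 ± 1.05 to 14.4 ± 2.04 CPM (SD over 4 libraries). Skeletal muscle markers, led by Ttn, summed to 3412 to 3642 and 3759 to 3988 CPM with Tnnc2 up-regulated as 1 of 10, and erythroid markers, led by Hbb-bs, to 5161 to 5730 and 5640 to 6498 CPM with Hba-a1 and Hba-a2 up-regulated out of 5. Apart from the adipocyte, endothelial, erythroid and sex-linked lists, the sums of these lists did not overlap between the genotypes. Each of those sums had a two-sided exact permutation p of 0.0286, the smallest that 4 against 4 libraries allow, or 0.0413 adjusted over 13 lists. The lists were chosen with earlier results known, and few genes dominate some sums. These p-values therefore describe the separation of the sums and carry no weight for a cell type.

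**Figure D4:**
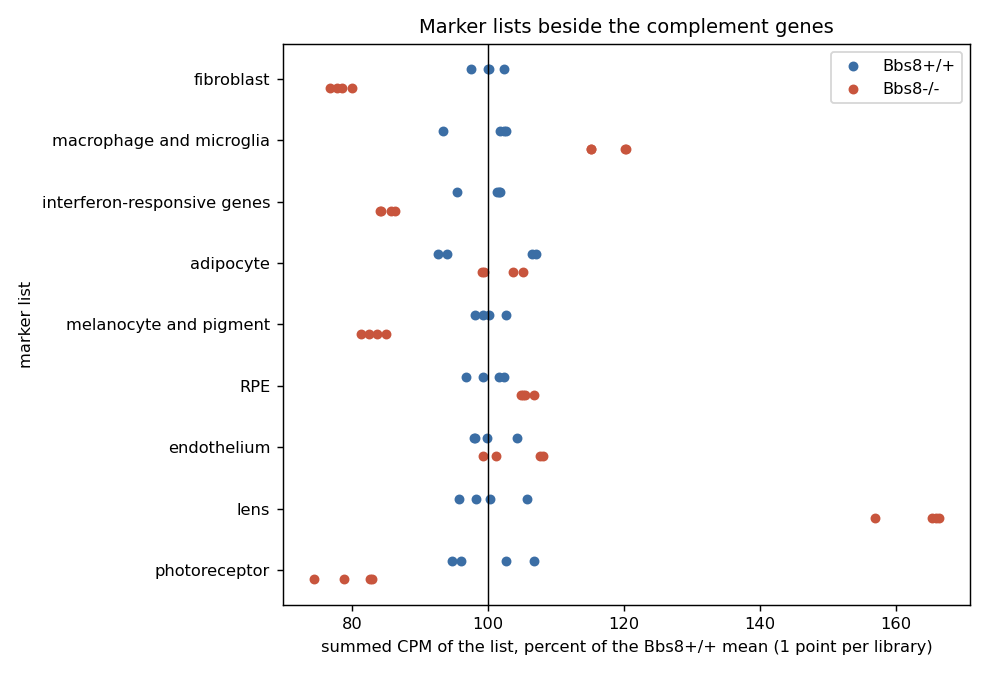
Summed level of 9 gene lists in each library, as a percent of the Bbs8+/+ mean of the list. Each point is 1 library, blue for Bbs8+/+ and red for Bbs8-/-. Fibroblast, interferon-responsive, pigment cell and photoreceptor sums are lower and macrophage, RPE and lens sums higher in every Bbs8-/- library, while adipocyte and endothelial sums overlap.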

How the data were processed

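QuantSeq 3′ mRNA (FWD kit) libraries of 8 eyecup samples were analysed, 4 for each genotype given in the labels. The authors trimmed reads with BBDuk, aligned them with STAR to mm10 with the Ensembl gene model of a Cell Ranger reference, and counted uniquely aligned reads per gene with htseq-count. The deposited values are these raw counts, 1 file per library, without molecular identifiers, so floors and the Poisson interval of C3 reflect counting error alone. Whether the counter used strand is not given in the sources used here. The closing lines of each file (reads outside genes, 42.1% to 44.4% of uniquely aligned reads, ambiguous reads and multiple alignments) were left out of library sizes and tests. The study's filter on multi-mapped reads was not applied.

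Symbols and 1-based positions came from GENCODE M21 on the same assembly (31011 of 31053 genes matched), promoter sequences from RefSeq GRCm38.p6. Genes reaching 1 CPM in 4 or more libraries entered the two-sided quasi-likelihood F test of edgeR 4.0.16 (R 4.3.3, TMM, genotype only), with Benjamini-Hochberg adjustment over 13813 genes and a threshold of FDR 0.05. From the study's methods come edgeR, this threshold and a CPM filter, while the form of the test, TMM and the minimum of 4 libraries were chosen here. The standard error was the log2 fold change divided by the square root of F, and 95% intervals are 1.96 times that, which includes the spread between libraries. On simulated counts for 13813 genes the test recovered 153 of 200 genes changed by 1 on the log2 scale, with 7 false calls among 160. Smaller changes, such as those measured for C2, Serping1, C1ra, C4b, Cd55 and Cd59a, were not simulated. The recovery therefore does not show how often the test would detect changes of that size. It was not split by expression level either, so it cannot be applied to C3 with its few counts. DESeq2 1.42.0 was an alternative. For the summed level of a list, an exact permutation test over libraries was used (two-sided).

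The genes and lists were chosen with earlier results of these data known. Genes were named by rule: the 9 complement genes, Ttc8, other complement genes past FDR 0.05 or with a mean of at least 20 CPM, the closest copies of the 9, in each marker list the most abundant gene and up to 3 called genes, and the 3 genes most like the complement gene with the lowest p. A few genes covered by the lists or the rule are left unreported here. Genes named outside the rule, chosen after their values were seen, are Cfb, Cfp, C8g, Hc, C6, C7, C9, Fcna, Susd4, Vtn, C3ar1, Masp2, Itgax, Colec11, C5ar2, Dcn, Pnpla2, Fabp4, Plin4 and the markers at 0. The marker lists were fibroblast, macrophage and microglia, interferon-responsive genes, adipocyte, melanocyte and pigment, RPE, endothelium, lens, photoreceptor, Müller glia and astrocyte, skeletal muscle, erythroid and sex-linked. Alternatives were RLE size factors, library totals only, filterByExpr, no filter, a likelihood ratio test, DESeq2, FDR 0.01, thinning to the smallest total, the replicate number as a block, and each library left out in turn.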

Additional observations from a re-analysis of the deposited data

Results flagged for a closer look

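Single libraries that stood well away from the 3 others of their genotype were found in 4 of the 56 sets of 4 values examined, and about 2.8 (1 in 20) would arise by chance. Cd59a was at 21.13 CPM in Bbs8-/- replicate 3 against 30.85 to 32.8 CPM in the other Bbs8-/- libraries. The interferon-responsive genes summed to 887.4 CPM in Bbs8+/+ replicate 3 against 942.4 to 945.5 CPM, the lens markers to 334.4 CPM in Bbs8-/- replicate 4 against 352.5 to 354.6 CPM, and the macrophage and microglia markers to 475.6 CPM in Bbs8+/+ replicate 1 against 517.8 to 522.5 CPM.

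Outside the gene counts, reads that fell in no annotated gene were 42.64% ± 0.542 of uniquely aligned reads in the controls and 44.27% ± 0.125 in the mutants (SD over 4 libraries), higher in all 4 Bbs8-/- libraries. Their part in the complement values was not tested.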

How the results depend on the processing

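None of the 9 complement genes passed FDR 0.05 in any of the 17 alternatives (0 up and 0 down in each, DESeq2 included). Each of the 7 tested kept its direction, although C3 could not be fitted with filterByExpr and had no adjusted p from DESeq2. Over all genes, 92 were up and 81 down at FDR 0.01, and with 1 library left out 114 to 172 were up and 105 to 150 down. Among the other complement genes, 1 was up (Clu) in every fit with a library left out and 0 to 1 were down. The 1 down was C1s1, without Bbs8+/+ replicate 3 or without Bbs8-/- replicate 1. Of 16 genes followed in this way (Ttc8 and 15 complement genes), 14 kept direction and side of the threshold throughout, and 1 near 0 changed sign. C1qa was -0.022 without Bbs8-/- replicate 4 (-0.022 to 0.16 with 1 library left out). Its cause was not tested. The numbers in the sample titles did not pair the libraries, with correlations of deviations between -0.056 and 0.019 over 6628 genes. With the replicate block, 134 genes were up and 129 down, C3 was at 1.91 and C1s1 at -0.64 on the log2 scale, and no call on a named complement gene changed. Depth limits C3, Cfi, Cfd and most of the attack complex, at 3 counts or 1.04 to 1.83 CPM per library.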

Other observations

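Some values lie outside the comparisons above and were picked after they were seen. Masp2, which encodes a protease of the lectin pathway, had 1 count over the 4 Bbs8+/+ libraries and 7 over the 4 Bbs8-/- libraries. Itgax, which encodes a subunit of the complement receptor on dendritic cells and macrophages, had 2 and 8 counts. Colec11, which encodes a collectin, went the other way with 8 and 3 counts, as did the C5a receptor gene C5ar2 with 4 and 1. All of them were too low for the test.

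The transcripts of the partner proteases C1s and C1r were also set against each other within each library. C1s1 counts per C1ra count were 1.07, 1.25, 0.732 and 1.09 in Bbs8+/+ and 0.976, 0.569, 0.538 and 0.476 in Bbs8-/-, with means of 1.035 ± 0.218 and 0.640 ± 0.228 (SD over 4 libraries). The groups overlapped through Bbs8+/+ replicate 3 and Bbs8-/- replicate 1, and the difference did not pass a two-sided exact permutation test (p = 0.0571). The ratio was chosen after the values of C1s1 had been seen.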
